A study of Mus musculus with 68 samples.

Results

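The resting zone of the growth plate was compared with the hypertrophic zone in mice aged 28 days (P28). The growth plate is the layer of cartilage cells, or chondrocytes, that lengthens long bones. The comparison rests on all P28 libraries from ethanol-fixed sections of these zones, 8 resting and 9 hypertrophic, which are 17 of the 68 libraries of the series. Libraries with at least 100000 counts were kept (3 resting and 5 hypertrophic) and added up per animal and zone, which gave 6 sums from 3 animals, called A, B and D here. The zones of one animal formed a pair.

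All mice were of mixed background and the labels name no treatment or mutation in any group, so the resting and hypertrophic sums differ by zone and share age, fixation and tissue. Cells of each zone were cut by laser from stained frozen sections and lysed without RNA extraction, and full-length cDNA libraries were made by SMART-seq2 with Tn5 tagmentation. Mice aged 2 days (P2), handled in the same way, gave 4 resting and 4 hypertrophic sums for the comparison of ages. Only P2 animals A, D and G gave both zones. P2 animal F gave resting alone and P2 animal C hypertrophic alone, so their sums do not inform the zone difference within animals. A captured patch holds many cells, so fewer cells of a type and less RNA per cell cannot be told apart.

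Depth was low and uneven. The resting sums held 108601, 135624 and 260199 counts in animals A, B and D, and the hypertrophic sums 121510, 423177 and 2132569. Ribosomal RNA, read under the symbols Rn45s, Lars2 and Glra2, took 32.7% to 45.1% of the counts in resting and 47.7% to 85.04% in hypertrophic sums, so the shares did not overlap. A hypertrophic library of animal D, replicate 8, was 98.3% ribosomal and held 13080 other counts. A proliferative library of animal D, replicate 9, which entered the fit through the animal block, held 267 Xist and 0 Y-linked counts, while the resting sum of the same animal held 0 Xist and 76 Y-linked counts. Animals A and B held Xist and no Y-linked counts. The resting and hypertrophic libraries of animal A carry different suffixes in their labels, and the label of animal B names animals in the plural, so that sum can be a pool.

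In the growth plate, reserve chondrocytes of the resting zone feed columns of dividing cells, which then stop dividing, enlarge and become hypertrophic before bone replaces them. Indian hedgehog (Ihh), made by cells at the start of hypertrophy, acts on cells further up. PTHrP (Pthlh), made by resting cells, acts through its receptor Pth1r to delay hypertrophy. Type X collagen (Col10a1) is the classic product of hypertrophic cells, and the phosphatase Alpl and the sialoprotein Ibsp take part in mineralisation.

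Of the genes that separated the zones, 9 carry a microRNA of the RefSeq table inside them, 6 of them higher and 3 lower in resting (Atp2b4, Gcnt2 and Plekhn1). The share of such genes among all genes tested was not counted, so these numbers say nothing about microRNA hosts as a group. The sequences are printed for 3 of the 6, chosen after the values were seen. Another microRNA inside Meg3, miR-1906, is not printed. Meg3 and H19 are long non-coding RNAs of imprinted loci, and Wwp2, a ubiquitin ligase expressed in cartilage, hosts the cartilage microRNA miR-140.  The libraries do not measure mature microRNAs, so the sequences are shown for what the host transcripts contain. They come from RefSeq (build GRCm38.p6), run 5′ to 3′, and have the seed (bases 2 to 8) in capitals. The seeds of these 5 strands differ from one another.
mmu-miR-770-5p (Meg3, chr12:109563710-109563731, plus strand): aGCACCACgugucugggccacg
mmu-miR-770-3p (Meg3, chr12:109563744-109563765, plus strand): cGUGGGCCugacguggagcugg
mmu-miR-675-5p (H19, chr7:142577112-142577133, minus strand): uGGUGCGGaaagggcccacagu
mmu-miR-675-3p (H19, chr7:142577078-142577099, minus strand): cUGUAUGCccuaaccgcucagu
mmu-miR-140-3p (Wwp2, chr8:107551288-107551308, plus strand): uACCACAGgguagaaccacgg

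Runx factors are known drivers of hypertrophy, so the promoters were searched for the letters TGTGGT on both strands. The window was the 250 bases before the RefSeq start. Of the genes that passed the test below and have a promoter in the RefSeq table (85), the letters were in 3 of 28 higher in resting (10.7%) and 6 of 57 lower in resting (10.5%). Over all genes tested with a promoter there they were in 632 of 5263 (12%), and over all promoters of the table in 14%. The share was thus no higher in either direction than over the genes tested. The 3 promoters printed, with the letters in capitals, show that they occur before genes of both directions, and were chosen after the values were seen. Ucma, higher in resting, has them on the opposite strand, 62 bases before its start. Hapln1 and Sgms2, lower in resting, have them 160 and 120 bases before a RefSeq start. For each gene a RefSeq promoter that holds the letters was printed. The window of Hapln1 lies inside the gene as drawn by GENCODE, which begins at chr13:89539796.
Ucma (chr2:4975872-4976121, plus strand): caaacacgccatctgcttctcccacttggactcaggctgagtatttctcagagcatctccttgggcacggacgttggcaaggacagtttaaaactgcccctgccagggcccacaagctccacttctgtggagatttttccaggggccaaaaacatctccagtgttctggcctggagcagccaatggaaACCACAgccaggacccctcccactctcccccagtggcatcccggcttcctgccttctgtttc
Hapln1 (chr13:89540386-89540635, plus strand): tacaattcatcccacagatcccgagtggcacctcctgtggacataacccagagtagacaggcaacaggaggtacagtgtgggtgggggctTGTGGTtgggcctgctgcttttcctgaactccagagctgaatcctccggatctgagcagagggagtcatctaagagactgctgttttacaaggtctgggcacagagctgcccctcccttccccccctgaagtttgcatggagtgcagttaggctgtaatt
Sgms2 (chr3:131491444-131491693, minus strand): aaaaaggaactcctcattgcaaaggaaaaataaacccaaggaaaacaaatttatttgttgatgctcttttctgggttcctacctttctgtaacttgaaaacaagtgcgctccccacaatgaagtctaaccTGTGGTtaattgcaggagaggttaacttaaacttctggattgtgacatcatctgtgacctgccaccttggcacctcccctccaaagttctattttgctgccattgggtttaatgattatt

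Of 6958 genes tested, 123 (1.77%) differed between the zones at an adjusted p below 0.05 (edgeR quasi-likelihood test, Benjamini-Hochberg adjustment). The resting zone was higher for 38 (0.546%) and lower for 85 (1.22%). The 3 resting sums did not overlap the 3 hypertrophic ones for 31 of the 38 and 78 of the 85, against 4.40% and 8.62% of all genes tested in these directions. Counts were absent from all hypertrophic sums for 16 of the higher genes and from all resting sums for 21 of the lower ones. The median log2 difference over all genes tested was -0.27, and RLE scaling moved it by 0.39 to 0.12, with 54 genes higher and 47 lower in place of 38 and 85. Without the animal block 40 genes passed. Leaving out animal A gave 62, leaving out animal B 28 and leaving out animal D 53. The samples fall into 2 sets by their run of accession numbers, and within the set that holds A and B with 4 P2 animals 72 genes passed, of which 56 were among the 123. Animal D is the only P28 animal with both zones in the other set, and no fit was made within that set. A fit of the 6 sums by themselves, with 2 residual degrees of freedom, called none of the 1140 genes it could test, and 133 had an unadjusted p below 0.05. In each of 9 fits that left out 1 animal of either age, 16 genes passed. Fits without a P2 animal kept every P28 sum and touched the P28 difference only through scaling, filter and shared spread. They are thus a weaker check of a P28 call than the fits without a P28 animal. Higher in resting among the 16 genes were Meg3, Ucma and Tgfbi. Lower were Loxl4, Sgms2, Aldh1a3, Ccdc80, Alpl, Atp1b3, Mef2c, Pth1r, C430049B03Rik, Tcf7l2, Ihh and the ribosomal symbols Rn45s and Lars2. Of these, Sgms2 (adjusted p = 0.135), Pth1r (0.0585), Rn45s (0.114) and Lars2 (0.286) did not pass without the animal block.

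**Figure D1:**
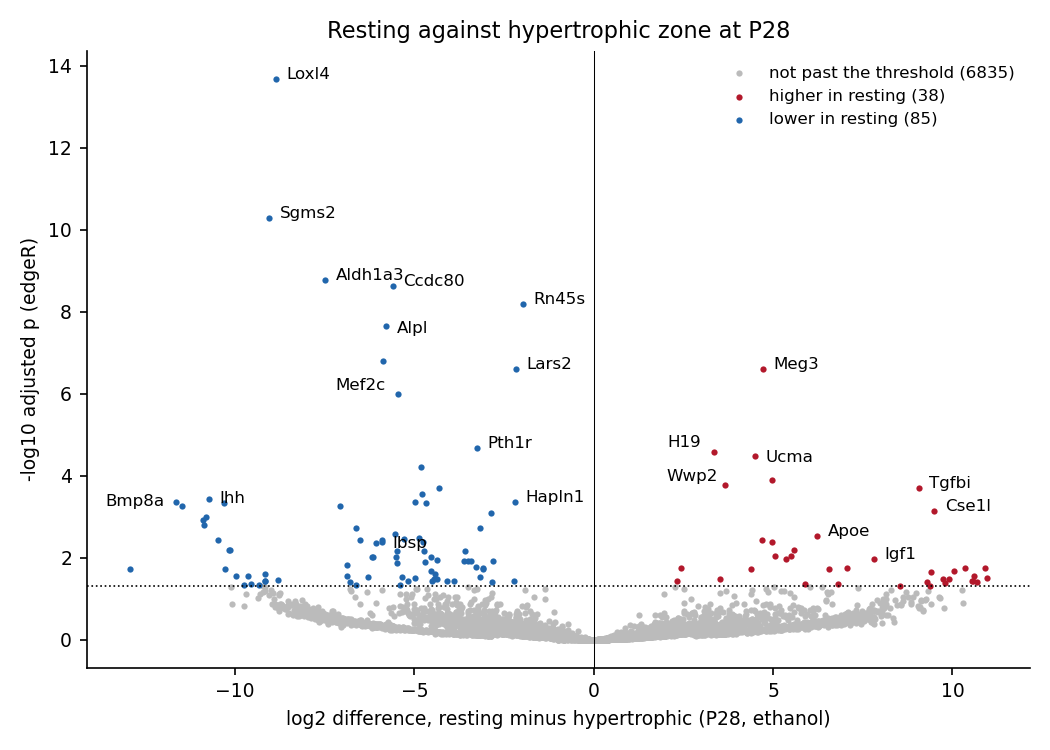
Log2 difference between the resting and hypertrophic zone at P28 (x axis) against -log10 of the adjusted p (y axis) for the 6958 genes tested. Points above the dotted line passed the threshold of 0.05, 38 higher in resting (red) and 85 lower (blue), and Loxl4 lies highest.

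Levels are given as CPM, normalised read counts scaled by the TMM library size (edgeR cpm), for animals A, B and D in that order, and differences as fitted log2 values ± SE. Counts of calls in a list stand against 0.546% of all genes tested higher in resting and 1.22% lower.

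Of 15 resting-zone markers tested, Ucma and Apoe passed, both higher in resting. Ucma, a secreted protein of upper-zone chondrocytes (chr2:4976122-4985748), was at 677, 918 and 657 CPM in resting and 0, 87.4 and 29.6 CPM in hypertrophic sums. Every resting sum was above every hypertrophic one, and the difference was 4.50 ± 0.83 (adjusted p = 3.29e-05). Apoe, a lipid carrier, was at 593, 457 and 634 CPM in resting and 0, 40.6 and 0 CPM in hypertrophic sums. It rose by 6.23 ± 1.44 (adjusted p = 0.00294), a call lost without animal A (adjusted p = 0.184) or D (0.0727). None of the list was called lower and 13 did not pass. The median difference of the list was 3.14, or 2.38 with a gene that had no counts in one zone put at its bound.

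PTHrP did not pass. Pthlh had 9, 2 and 98 counts in resting and 0, 1 and 0 in hypertrophic sums. Most of its reads thus came from animal D, and the difference was 5.95 ± 2.48 (adjusted p = 0.235). Sfrp5, a secreted Wnt binder, was at 26.5, 65.9 and 66.1 CPM in resting and 0, 9.36 and 0 CPM in hypertrophic sums (adjusted p = 0.234). Wif1, another Wnt inhibitor, was at 180, 60.9 and 175 CPM in resting and 0, 28.1 and 0 CPM in hypertrophic sums (adjusted p = 0.192). In both, the resting sums lay above all hypertrophic ones. None of the 4 secreted Wnt binders tested passed, and Frzb, another of them, lay the other way (-0.65 ± 1.33, adjusted p = 0.881), at 487, 0 and 575 CPM in resting and 1333, 1339 and 111 CPM in hypertrophic sums. Scrg1, Clu, Spon1 and Abi3bp had positive differences of 1.96 ± 0.80, 3.14 ± 1.88, 2.38 ± 1.61 and 3.68 ± 2.45, with adjusted p of 0.225 or more. Cd200, Foxa2 and Gas1 lay the other way. Cd200, a surface protein used to sort skeletal stem cells, was at 89.95, 5.07 and 0 CPM in resting and 96.4, 381 and 156 CPM in hypertrophic sums (-4.42 ± 1.43, adjusted p = 0.0786). Foxa2, a transcription factor, was at -6.81 ± 2.10 (adjusted p = 0.0582). Gas1, a hedgehog co-receptor, had 2 resting and 6 hypertrophic counts (adjusted p = 0.823), and Grem1, a BMP antagonist, 4 and 0 (adjusted p = 0.542).

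**Figure D2:**
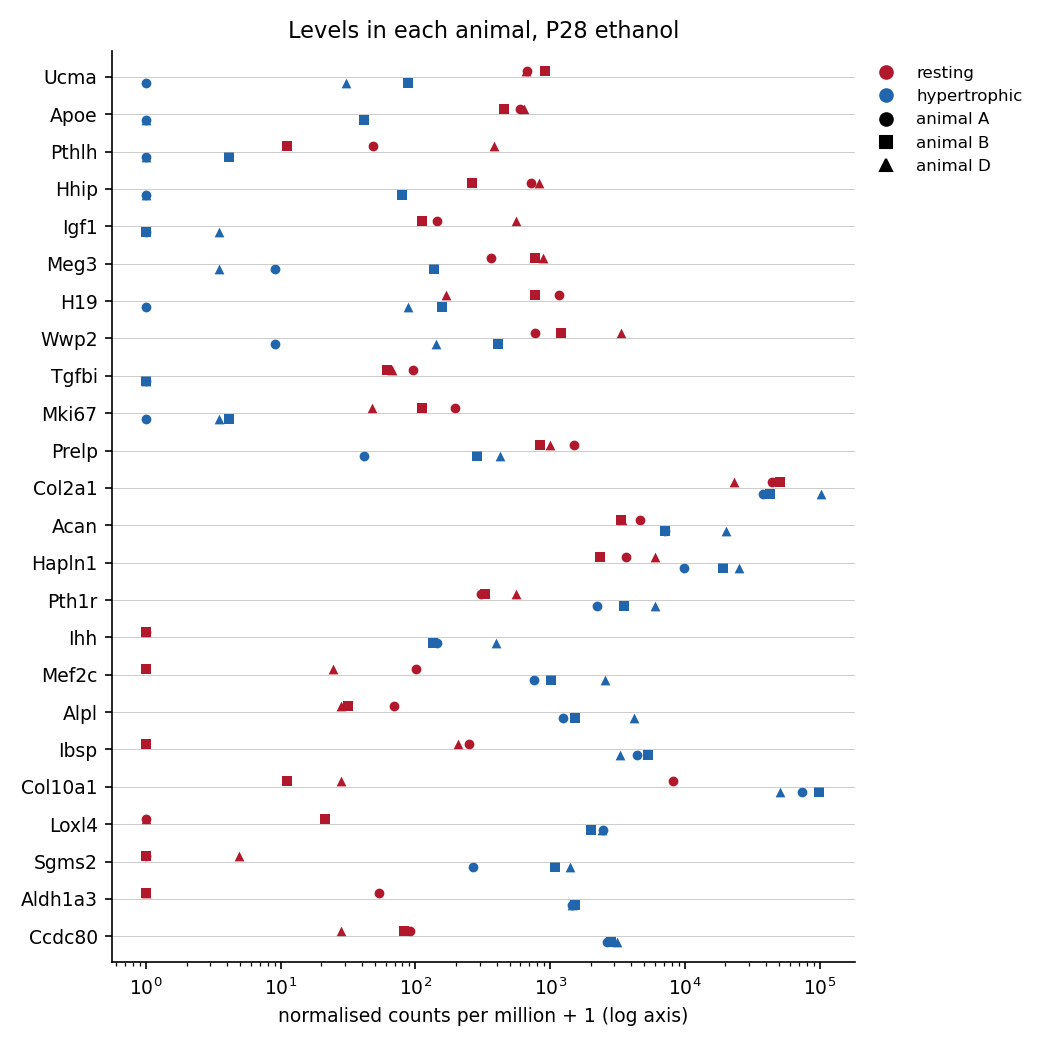
CPM plus 1 on a log axis for 24 genes in the resting (red) and hypertrophic (blue) sums of animals A (circle), B (square) and D (triangle). Points at 1 are sums with no count and can lie on top of each other. Ucma, Meg3 and Tgfbi have all resting sums to the right, and Loxl4, Alpl and Pth1r all hypertrophic sums.

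Of 11 hedgehog pathway genes tested, Ihh was lower and Hhip and Boc were higher in resting. The ligand Ihh (chr1:74945315-74951672) had no count in any resting sum and stood at 145, 134 and 392 CPM in hypertrophic sums. It was at least 55.5-fold lower in resting, taking 3 counts over the 3 resting sums as the limit (adjusted p = 0.000375). Hhip, a membrane protein that binds hedgehog ligands and is itself a target of the pathway, was at 714, 264 and 828 CPM in resting and 0, 78.03 and 0 CPM in hypertrophic sums, and rose by 5.37 ± 1.37 (adjusted p = 0.0108). Boc, a hedgehog co-receptor, was at 15.9, 50.7 and 175 CPM in resting sums and had no hypertrophic count, at least 25.5-fold higher (adjusted p = 0.032). The Hhip call was lost without animal A (adjusted p = 0.347), without D (0.287) and with RLE scaling (0.132), and the Boc call without any 1 of the P28 animals (0.1 to 0.347) or P2 animal D (0.0796). The receptor Ptch1 had counts in 1 resting sum alone (45.7 CPM in animal B), and the targets and mediators Gli1, Gli2, Gli3 and Smo had adjusted p of 0.366 to 0.901. The other 8 did not pass, and the median of the list was 0.84.

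Pth1r, the receptor for PTHrP (chr9:110722085-110747145), was at 307, 325 and 560 CPM in resting and 2233, 3530 and 5964 CPM in hypertrophic sums. The hypertrophic level was higher in each animal, and the resting zone was lower by -3.25 ± 0.59 on the log2 scale (adjusted p = 2.07e-05). The few reads of the ligand Pthlh lay mostly in resting sums, 98 of them in animal D, and only the receptor passed. In the xylene-fixed sums described below, Pthlh was at or under 2.95 CPM in both zones. Of the 9 genes of the PTHrP list tested, Pth1r was the only call, and Gnas, the G protein subunit that relays its signal, was at -0.34 ± 0.69 (adjusted p = 0.878).

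Of the gene lists, that of hypertrophic markers held the most genes called lower. Loxl4, a lysyl oxidase that cross-links matrix (chr19:42593982-42612813), was at 0, 20.3 and 0 CPM in resting and 2474, 2004 and 2418 CPM in hypertrophic sums. This gave the smallest adjusted p of all genes tested, 2.09e-14, at -8.86 ± 1.02. Alpl, the phosphatase of mineralising cells (chr4:137741733-137796384), was at 68.8, 30.4 and 27.2 CPM in resting and 1245, 1526 and 4170 CPM in hypertrophic sums (-5.79 ± 0.86, adjusted p = 2.29e-08). Mef2c, a transcription factor that drives hypertrophy, was at 100.5, 0 and 23.3 CPM in resting and 755, 1011 and 2561 CPM in hypertrophic sums (-5.45 ± 0.90, adjusted p = 1.01e-06). For these 3 genes the zones did not overlap.

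Ibsp, bone sialoprotein, was at 249, 0 and 206 CPM in resting and 4434, 5300 and 3304 CPM in hypertrophic sums, and fell by 5.90 ± 1.21 (adjusted p = 0.00359). Its call was lost without animal D (adjusted p = 0.513), without P2 animal F (0.0668) and with RLE scaling (0.252). Panx3, a channel protein of prehypertrophic cells, was at 89.95, 5.07 and 7.77 CPM in resting and 72.3, 446 and 2018 CPM in hypertrophic sums (-4.98 ± 1.03, adjusted p = 0.000445). In animal A its resting level was above its hypertrophic one, so the zones overlapped, and the call was lost without animal B (adjusted p = 0.0886) or D (0.355). Cd24a, a surface glycoprotein, fell by 2.81 ± 0.73 (adjusted p = 0.0119), and not past the threshold without animal A (0.211), animal B (0.104) or P2 animal D (0.0662). With Ihh and Pth1r, 8 of the 15 hypertrophic markers tested were lower in resting and none was higher. The list's median was -3.25. This list and that of the resting-zone markers were chosen with earlier results of these data known, so their counts are not independent support.

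Col10a1 (chr10:34389981-34397085) did not pass, and its resting sums varied widely. It was at 8159, 10.1 and 27.2 CPM in resting and 73538, 99345 and 50583 CPM in hypertrophic sums. Of the 1551 resting counts 1542 came from animal A, and the difference was -8.14 ± 2.49 (adjusted p = 0.201). Without animal A it was -11.72 with an adjusted p of 8.8e-12, and DESeq2 over all animals gave 4.76e-08. Other hypertrophic genes in that resting sum were mixed: it held 17 of the 20 resting Panx3 counts, 19 of 25 for Mef2c, 13 of 26 for Alpl, 47 of 100 for Ibsp and 10 of 10 for Aldh1a3, and no count of Loxl4, Ihh or Sgms2. Whether hypertrophic material was part of it was not tested. Mmp13, a collagenase of the last hypertrophic cells, was not tested. It had 0 resting counts and 98, 27 and 0 hypertrophic counts, at least 31.5-fold lower in resting. Runx2, a transcription factor of hypertrophy, was at 74.1, 20.3 and 11.7 CPM in resting and 169, 112 and 528 CPM in hypertrophic sums (-2.499 ± 1.02, adjusted p = 0.224). Runx3 (3.09 ± 1.15, adjusted p = 0.159) and Spp1 (-2.70 ± 3.38, adjusted p = 0.78) did not pass either.

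Other strongly lower genes code for enzymes and secreted proteins. Sgms2, a sphingomyelin synthase, had 1 count in all resting sums and stood at 265, 1083 and 1402 CPM in hypertrophic ones. The pooled ratio was 0.00139 (95% exact interval 3.53e-05 to 0.00778, counting error only), and the fitted difference -9.05 ± 1.17 (adjusted p = 5.31e-11). Aldh1a3, an enzyme that makes retinoic acid, was at 52.9, 0 and 0 CPM in resting and 1454, 1523 and 1451 CPM in hypertrophic sums (-7.49 ± 1.04, adjusted p = 1.71e-09). Its hypertrophic levels differed little between animals. Ccdc80, a secreted matrix protein, was at 89.95, 81.2 and 27.2 CPM in resting and 2627, 2822 and 3117 CPM in hypertrophic sums (-5.61 ± 0.79, adjusted p = 2.41e-09). Atp1b3, a sodium pump subunit, was lower by -5.87 ± 0.92 (adjusted p = 1.6e-07). Tcf7l2, a Wnt transcription factor, stood at -4.33 ± 0.86 (adjusted p = 0.0002) and the RNA C430049B03Rik at -4.81 ± 0.91 (adjusted p = 6.12e-05). Rn45s, the ribosomal RNA precursor, fell by 1.98 ± 0.29 and Lars2, whose locus holds ribosomal repeats, by 2.17 ± 0.34. Both are part of the ribosomal share given above, but these differences are relative to the TMM library size and are not differences of that share.

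RNA of the main cartilage matrix was abundant in both zones. Col2a1, the type II collagen that forms cartilage fibrils, was at 44166, 51121 and 22941 CPM in resting and 37793, 42768 and 102264 CPM in hypertrophic sums. The zones overlapped, and the difference was -0.44 ± 0.36 (adjusted p = 0.606) with a sign that turned under other settings. None of the 11 cartilage collagens tested passed. Acan, the aggrecan core protein, was at 4667, 3348 and 3382 CPM in resting and 7165, 7067 and 20037 CPM in hypertrophic sums. These levels did not overlap, but the difference of -1.37 ± 0.46 missed the threshold (adjusted p = 0.101). Sox9, the master factor of chondrocytes, was at 1.26 ± 0.76 (adjusted p = 0.451).

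Hapln1, the link protein that ties aggrecan to hyaluronan, was at 3646, 2328 and 5974 CPM in resting and 9896, 19193 and 24984 CPM in hypertrophic sums. It fell by 2.20 ± 0.46 (adjusted p = 0.000438), and not past the threshold without animal B (adjusted p = 0.2). Matn1, a matrix adaptor protein, was at 873, 35.5 and 97.2 CPM in resting and 1012, 524 and 1574 CPM in hypertrophic sums (-2.23 ± 0.65, adjusted p = 0.0372). The zones of Matn1 overlapped, and its call was lost in 6 of 9 fits without 1 animal (adjusted p up to 0.566). Prelp, a leucine-rich proteoglycan, went the other way, at 1492, 842 and 999 CPM in resting and 40.2, 284 and 424 CPM in hypertrophic sums (2.43 ± 0.65, adjusted p = 0.0173). Prelp was lost without animal A (adjusted p = 0.528), B (0.114) or P2 animal D (0.0682), and without proliferative library 9 of animal D (0.0802). Csgalnact1, which starts chondroitin chains, rose by 3.53 ± 1.01 and Chsy1, which extends them, fell by 5.29 ± 1.24. Csgalnact1 was lost without any 1 of the P28 animals (adjusted p of 0.1 to 0.349) or P2 animal D (0.0793), and Chsy1 without B (0.28) or D (0.137). Of 22 genes of glycosaminoglycan synthesis tested, these 2 passed.

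Imprinted growth genes moved in both directions. Meg3 (chr12:109541001-109571726) was at 360, 776 and 882 CPM in resting and 8.03, 137 and 2.47 CPM in hypertrophic sums, and rose by 4.73 ± 0.75 (adjusted p = 2.46e-07). H19 (chr7:142575529-142578143) was at 1159, 766 and 167 CPM in resting and 0, 156 and 86.4 CPM in hypertrophic sums, and rose by 3.34 ± 0.61 (adjusted p = 2.57e-05). The lowest resting sum of H19 lay just above the highest hypertrophic one, and the call was lost without animal A (adjusted p = 0.25). Igf2, a fetal growth factor from the same region as H19, had 26 resting counts, 23 of them in animal B, and 1 hypertrophic count. It passed (4.98 ± 0.97, adjusted p = 0.000127) but not without animal B (0.423).

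Plagl1, Cdkn1c and Slc38a4 were lower in resting. Cdkn1c, an inhibitor of cell division, was at 280, 193 and 62.2 CPM in resting and 843, 1267 and 2312 CPM in hypertrophic sums (-3.17 ± 0.72, adjusted p = 0.00192). Plagl1, a zinc finger factor, was at 37.04, 117 and 73.9 CPM in resting and 80.3, 631 and 1246 CPM in hypertrophic sums (-2.86 ± 0.62, adjusted p = 0.000793). The amino acid transporter Slc38a4 fell by 5.90 ± 1.41 (adjusted p = 0.00415). Slc38a4 was lost without animal B (adjusted p = 0.061) or D (0.0763), Cdkn1c without B (0.0716) or D (0.189), and Plagl1 without D (0.169). With 3 higher and 3 lower of 16 tested, the list had a median of 0.28. Dlk1 and Phlda2 had no count in any of the 6 sums.

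In the growth hormone and IGF list the calls were Igf1 and Igf2, both higher in resting. Igf1, the growth factor through which growth hormone acts in part, was at 143, 112 and 560 CPM in resting and 0, 0 and 2.47 CPM in hypertrophic sums. Its pooled ratio was 255 (45.2 to 10124) and its fitted difference 7.80 ± 1.995 (adjusted p = 0.0108), lost without any 1 of the P28 animals (0.127 to 0.238). The receptors Igf1r (-0.79 ± 1.08, adjusted p = 0.79) and Ghr (-1.63 ± 1.55, adjusted p = 0.676) did not pass, nor did Stat5b, a transducer of growth hormone signals (6.03 ± 1.83, adjusted p = 0.0516). Of the 13 tested, 8 differences were positive and 5 negative, against 3123 and 3835 of the 6958 genes tested.

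Mki67, a marker of dividing cells, was at 196, 112 and 46.6 CPM in resting and 0, 3.12 and 2.47 CPM in hypertrophic sums (5.49 ± 1.38, adjusted p = 0.0092). The call was lost without animal A (adjusted p = 0.202) or B (0.159). Top2a, which untangles DNA in division, was at 333, 173 and 7.77 CPM in resting and 0, 21.9 and 0 CPM in hypertrophic sums, and did not pass (4.39 ± 1.41, adjusted p = 0.0772). Among the 32 cell cycle genes tested Mki67 was the single call. The median was 3.40, or 2.33 over 26 genes with those lacking counts in one zone at their bound. The summed level of the list was 1286, 1319 and 544 CPM in resting and 72.3, 300 and 56.8 CPM in hypertrophic sums. In the proliferative sums Mki67 was at 68.2, 88.2 and 110.2 CPM.

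The remaining genes higher in resting with the smallest adjusted p have varied roles. Wwp2 was at 773, 1192 and 3347 CPM in resting and 8.03, 409 and 141 CPM in hypertrophic sums (3.65 ± 0.72, adjusted p = 0.000169), and lost its call without animal A (0.0678). Tgfbi, a secreted adhesion protein, was at 95.2, 60.9 and 66.1 CPM in resting and had no hypertrophic count, at least 20.7-fold higher (adjusted p = 0.0002). Its proliferative sums, at 336, 275 and 344 CPM, lay above the resting ones. Angptl2 (4.70 ± 1.11), an angiopoietin-like protein, Lsp1 (4.97 ± 1.18), an actin-binding protein, Gpc6 (5.04 ± 1.27), a cell-surface glypican, and Srebf1 (5.58 ± 1.37), a regulator of lipid synthesis, rose with adjusted p of 0.00364 to 0.0092. Each was lost without animal A (adjusted p of 0.1 to 0.232), and Lsp1 and Srebf1 also without D (0.125 and 0.303) and Gpc6 without B (0.166).

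Cse1l, a nuclear export factor, stood at 21.2, 40.6 and 1578 CPM in resting and 0, 3.12 and 0 CPM in hypertrophic sums (9.49 ± 2.03, adjusted p = 0.000712). Its level in animal D set the value, and without D its adjusted p was 0.568. It was 1 of 8 genes higher in resting with over 90% of their resting counts from animal D. The others were D3Ertd751e, Topbp1, Zic1, Fras1, Ctc1, Tmprss11f and Zfp606, picked out here after their values were seen. Zic1 and Tmprss11f had resting counts in D alone, and their fitted differences changed sign without that animal.

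The calls among BMP and TGF-beta signals and among chondrocyte transcription factors were lower in resting. Bmp8a, a bone morphogenetic protein, had no resting count and was at 426, 381 and 207 CPM in hypertrophic sums, at least 65.3-fold lower in resting (adjusted p = 0.000438). Tgfb3, a growth factor of the TGF-beta family, had 1 resting sum with counts (5.07 CPM in animal B) and was at 96.4, 81.2 and 220 CPM in hypertrophic sums (adjusted p = 0.0469). Nog, a secreted BMP antagonist, was at 26.5, 35.5 and 0 CPM in resting and 289, 350 and 178 CPM in hypertrophic sums (-4.09 ± 1.18, adjusted p = 0.0367). Smad7, an inhibitor inside the cell, had no resting count (at least 20.9-fold lower, adjusted p = 0.0442). Irx5, a homeobox factor, had no resting count either and was at 185, 209 and 370 CPM in hypertrophic sums, at least 60.5-fold lower (adjusted p = 0.00119). The calls of Bmp8a (adjusted p = 0.0655) and Irx5 (0.0583) were lost without animal B, and those of Tgfb3, Nog and Smad7 without any 1 of the P28 animals (up to 0.393, 0.257 and 0.381). Of the BMP and TGF-beta ligands 2 of 6 tested were lower, and of their antagonists and modulators 2 of 9, against 1.22% of all genes tested. Of the 18 transcription factors tested Irx5 and Mef2c passed, with 9 differences positive, 9 negative and a median of -0.33, which was 0.19 with RLE scaling. Over all genes tested 3123 differences were positive and 3835 negative.

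Immediate early genes, which cells switch on within minutes of a stimulus, were lower in resting where they passed. Klf6 was at 10.6, 0 and 0 CPM in resting and 153, 156 and 565 CPM in hypertrophic sums (-6.64 ± 1.497, adjusted p = 0.00192). Fos had no resting count and was at 201, 165 and 9.87 CPM in hypertrophic sums, at least 20.7-fold lower (adjusted p = 0.0456). Of 10 tested these 2 passed and all 10 had a negative fitted difference, with a median of -4.31 (-4.26 with Fos at its bound). Over all 6958 genes tested, 3835 differences were negative and 85 genes (1.22%) passed as lower. Klf6 was lost without animal B (adjusted p = 0.0886) or D (0.102), and Fos in 6 of 9 fits without 1 animal and without hypertrophic library 8 of animal D (0.077).

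Among metabolic lists, 2 of 20 genes of cholesterol synthesis and uptake tested were lower and none was higher (1.22% and 0.546% of all genes tested). Sc4mol, a sterol oxidase, had counts in 1 resting sum (10.1 CPM in animal B) and was at 48.2, 150 and 284 CPM in hypertrophic sums (-6.19 ± 1.56, adjusted p = 0.00934). Sqle, squalene epoxidase, was at 0, 15.2 and 0 CPM in resting and 72.3, 144 and 51.8 CPM in hypertrophic sums (-4.37 ± 1.25, adjusted p = 0.0327). The median of the list was -3.61, or -1.98 with 4 genes at their bound. Sc4mol was lost without animal B (adjusted p = 0.0514) or D (0.223), and Sqle without any 1 of the P28 animals (up to 0.248). None of 26 genes of glycolysis and hypoxia, 65 of oxidative phosphorylation, 41 of cytosolic ribosomal proteins and 27 of the secretory pathway passed. Retinoid genes besides Aldh1a3 gave Rbp4, a retinol carrier, with no resting count (at least 27.8-fold lower, adjusted p = 0.0285), lost without animal A (0.275), animal B (0.39) or P2 animal D (0.0685). The protease Adamts1 had no resting count (at least 32.5-fold lower, adjusted p = 0.00633), and the inhibitor Timp3 fell by 3.09 ± 0.82 (adjusted p = 0.0173). Adamts1 was lost without animal A (0.0982) or B (0.185), and Timp3 without B (0.364) or D (0.125).

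Many markers of other tissues had few or no counts, but the summed level of some lists was not low in every sum. Of the osteoblast and osteocyte list, 2 of 4 tested were lower in resting, against 1.22% of all genes tested. They were Phex (-5.47 ± 1.35, adjusted p = 0.00665) and Cgref1 (-7.07 ± 1.49, adjusted p = 0.000551). Bglap, Bglap2, Dmp1 and Mepe, which define these cells, had no count in any of the 6 sums. The summed level of that list was 15.6 to 101.4 CPM in resting and 321 to 996 CPM in hypertrophic sums. Phex, an endopeptidase of mineralised tissue, was lost without animal B (adjusted p = 0.346) or D (0.312), and Cgref1 without B (0.0553). Of the perichondrium and fibroblast list, Fbn1, the microfibril protein, was the call among 4 tested. It was at 116, 91.3 and 210 CPM in resting and 8.03, 0 and 0 CPM in hypertrophic sums (6.56 ± 1.77, adjusted p = 0.019), and lost without animal B (0.257), D (0.178) or P2 animal D (0.0644). The summed level of this list was 180 to 401 CPM in resting and 197 to 935 CPM in hypertrophic sums, and Dpt, Mfap5, Scx and Thy1 had no count. The summed level of the red blood cell list was 95.2, 20.3 and 696 CPM in resting and 56.2, 96.8 and 7.40 CPM in hypertrophic sums, nearly all from the beta globin symbol Beta-s. Its high value in animal D stands beside the genes named above whose counts came from that animal, and its part in them was not tested. The osteoclast list summed to 10.6, 5.07 and 334 CPM in resting and 24.1, 46.8 and 9.87 CPM in hypertrophic sums. Its value in resting animal D was mostly Nfatc1 (326.5 CPM), and of 2 genes tested 0 passed. White blood cell markers reached 109 CPM in resting and 231 CPM in hypertrophic sums, and endothelial, fat cell and muscle markers stayed at or under 79.4 CPM.

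The zone difference was also set against that at P2. At P2, 262 genes (3.77%) differed between resting and hypertrophic. Of the 123 genes called at P28, 63 were called at P2 in the same direction and 1, Plagl1, in the opposite one. The change of the zone difference between the ages was tested in the same fit and passed for 19 genes (0.273%), 7 more positive (0.101%) and 12 more negative (0.172%) at P28. An unadjusted p below 0.05 was found for 686. The count of 19 rests on single P2 animals, as it was 0 without P2 animal D and 2 without P2 animal G, and it was 12 without proliferative library 9 of P28 animal D.

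Plagl1 turned its direction with age. At P2 it was at 257, 7595, 5217 and 6279 CPM in resting (P2 animals A, D, F and G) and 161, 144, 436 and 1514 CPM in hypertrophic sums (P2 animals A, C, D and G). The fitted difference, set by the P2 animals with both zones (A, D and G), was 2.497 ± 0.61 (adjusted p = 0.00285). With -2.86 at P28, where the zones overlapped, the change was -5.36 ± 0.86 (adjusted p = 3.92e-06). Its resting level at P28, 37.04 to 117 CPM in ethanol, lay below all 4 P2 resting sums, but it was 768 and 945 CPM in the xylene-fixed P28 resting sums, below 3 of the 4. Ucma had no or few hypertrophic counts at P2 and a difference of 10.81 ± 1.18 there, which shrank by 6.31 ± 1.34 (adjusted p = 0.00349). Alpl, with a difference of -11.84 ± 1.16 at P2, where its resting sums were at 0, 0.908, 0 and 0.179 CPM, moved by 6.05 ± 1.26 (adjusted p = 0.00314). Both kept their direction.

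Wif1 and F13a1 had almost no resting counts at P2. Wif1 was at 0, 1.82, 1.36 and 0 CPM in resting and 56.9, 0, 286 and 226 CPM in hypertrophic sums at P2, and its difference rose by 13.02 ± 2.53 with age (adjusted p = 0.000922). Its P28 difference itself did not pass, and in the xylene-fixed P28 sums Wif1 was lower in resting, at 10.9 and 33.4 CPM in resting and hypertrophic of animal D and 62.7 and 302 CPM in animal E. F13a1, a clotting transglutaminase found in growth plate cartilage, had 0 CPM in the 4 resting sums at P2 and 68.8, 40.6 and 1193 CPM at P28, a change of 8.91 ± 1.87 (adjusted p = 0.00314). The fibroblast-type matrix genes Dcn, a small proteoglycan (-6.13 ± 1.33, adjusted p = 0.00497) and Col1a2, a type I collagen chain (-5.49 ± 1.21, adjusted p = 0.00518) were higher in resting at P2 and did not differ past the threshold at P28. Dcn was at 252, 2894, 1413 and 1217 CPM in the P2 resting sums and at 159, 208 and 38.9 CPM in the P28 ones.

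**Figure D3:**
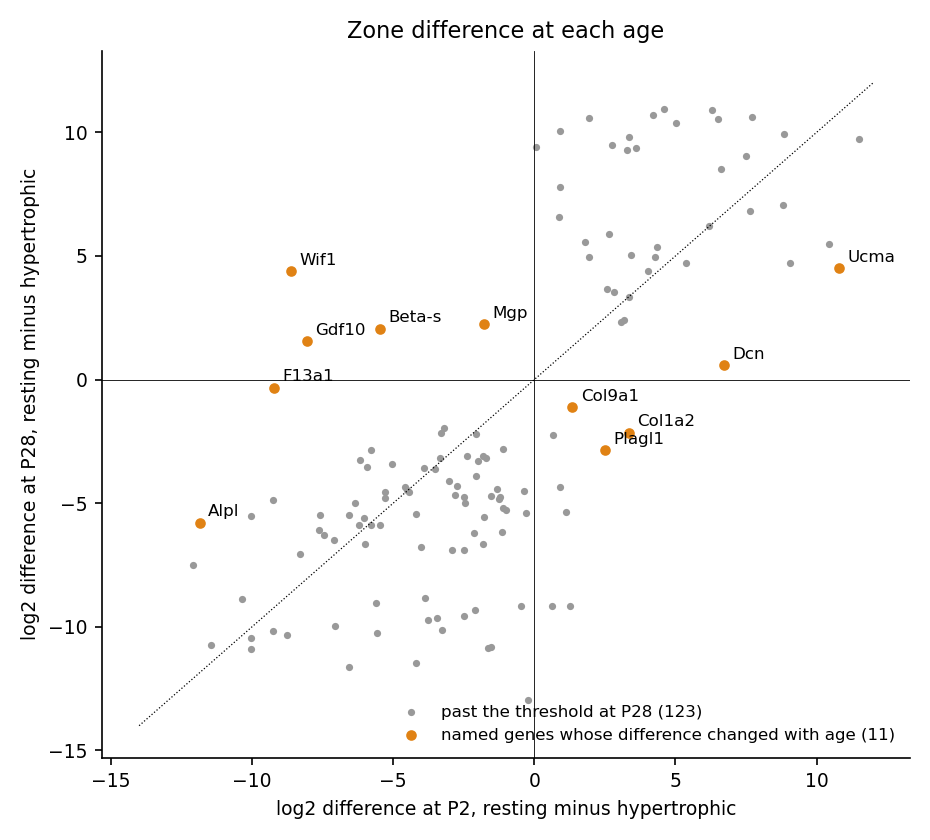
Fitted log2 difference between resting and hypertrophic at P2 (x axis) and at P28 (y axis) for the 123 genes called at P28 (grey) and 11 named genes whose difference changed with age (orange). The dotted line marks equal differences. Plagl1, Col1a2 and Col9a1 lie to the lower right, and Wif1, Gdf10, Beta-s and Mgp to the upper left.

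Xylene-fixed P28 sections, left out of the test, gave a description of the same zones in animal D and in a further animal, E, with 631447 to 7401383 counts per sum. Without a test, resting CPM was below hypertrophic CPM in both animals for 75 of the 85 genes called lower (88.2%, against 29.9% of all genes) and above it in both for 28 of the 38 called higher (73.7%, against 26.2%). Animal D is also in the ethanol sums, and its xylene hypertrophic sum held bone and fibroblast collagens, with Col1a1 at 26104, Col1a2 at 35894 and Col3a1 at 6592 CPM against 18.6, 160 and 3.20 CPM in its resting sum. In animal E these were at 15.2, 290 and 4.24 CPM in hypertrophic and 340, 745 and 7.29 CPM in resting, and their part in the other values was not tested. In animal E alone the counts were 78 of 85 (49.2% of all genes) and 32 of 38 (47.2%). Meg3 was at 1001 CPM in resting and 6.67 CPM in hypertrophic of animal E, H19 at 2176 and 3.64 CPM, and Ucma at 699 and 127 CPM. Loxl4 was at 4.38 and 4177 CPM, Ibsp at 11.7 and 8714 CPM, and Ihh at 0 and 538 CPM. Col10a1 stood at 8.31 and 29134 CPM in animal D and at 29.2 and 87153 CPM in animal E, so neither xylene resting sum held a level like that of ethanol animal A. Pthlh was at 0 and 2.95 CPM in animal D and 2.92 and 0 CPM in animal E. Lars2 and Crtc3, called lower in ethanol, were higher in resting in both xylene animals.

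**Figure D4:**
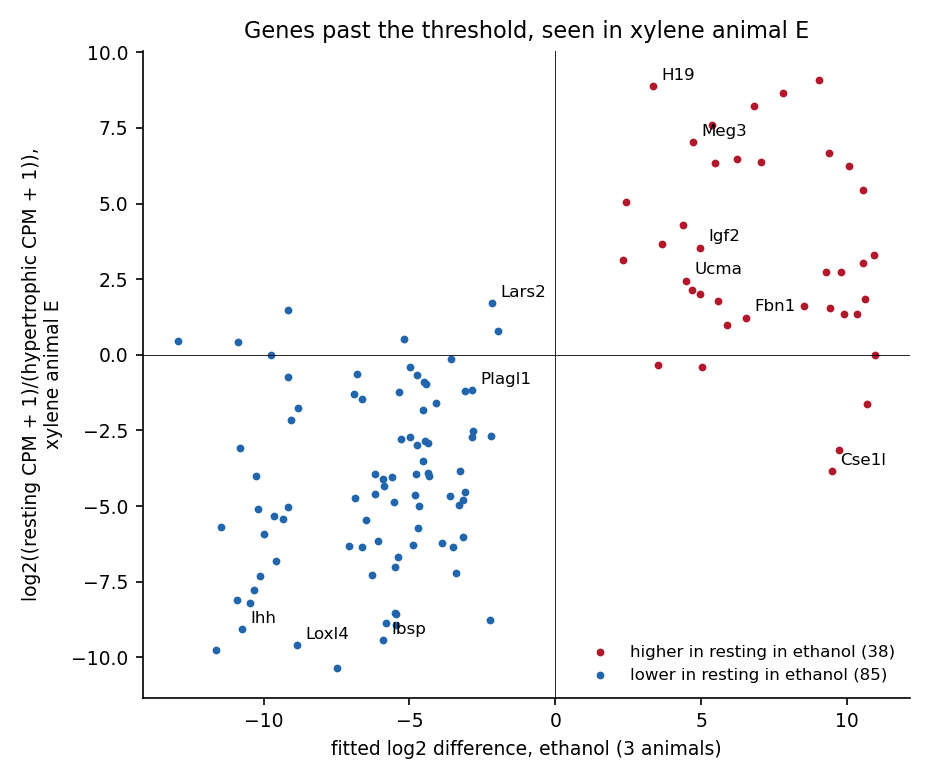
Fitted log2 difference in ethanol (x axis, 3 animals) against the log2 ratio of resting to hypertrophic CPM, each plus 1, in xylene animal E (y axis, 1 animal, no test) for the 123 called genes. Of 85 blue genes 78 lie below 0 and of 38 red genes 32 above 0, with Cse1l below.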

How the data were processed

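Laser-captured growth plate zones were sequenced as SMART-seq2 libraries. The authors deposited raw counts per gene symbol. Build mm10 and the tools STAR 2.5.2b, featureCounts 1.5.3, Subread and cutadapt are named in the notes on processing (per the submitters' processing notes). Not given in the sources used here: the annotation, and how strand and multi-mapped reads were handled. Thus reads of overlapping or antisense genes and near-identical copies cannot be told apart.

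Columns with one sample title were added (32 libraries had 2 columns), and of 51 ethanol P2 and P28 libraries the 26 with at least 100000 counts were kept. They were added per animal and zone into 21 sums. Counts were fitted with edgeR 4.0.16 in R 4.3.3 (TMM scaling, filterByExpr, robust quasi-likelihood test) with an animal block and zone within age. Adjusted p (Benjamini-Hochberg) below 0.05 over all 6958 genes was a call, and the SE was taken from the F statistic. CPM are normalised read counts scaled by the TMM library size (edgeR cpm). The script was tested on counts simulated from these sums, with 100 genes changed by a log2 of 2 and 100 by a log2 of 4. Of those tested it called 0% and 21%, and 0% of the unchanged genes. A gene that did not pass can thus still differ between the zones.

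Zones were paired by the animal named in the labels. Deviations of the 2 zones of one animal correlated at 0.00317 (A), -0.00358 (B) and 0.0176 (D) across 6958 genes. Nothing says that every library came from a separate dissection, so p-values measure the spread between these sums. Pooled ratios have exact intervals and folds against 0 use 3 counts over the group, and both cover counting error only.

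The members and gene lists were chosen with earlier results of these data known. Named genes were a fixed set of 25, the 12 with the smallest adjusted p in each direction, up to 4 called members of each of 38 lists with at least 30 counts, and 8 genes whose zone difference changed with age, of which 1 is not reported here. DESeq2 1.42.0, RLE scaling, other filters and library minimums, and leaving out animals or libraries were tried as alternatives. Xylene libraries are described without a test, with 1 CPM added before ratios. Gene coordinates are from GENCODE M21 (GRCm38).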

Additional observations from a re-analysis of the deposited data

Results flagged for a closer look

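For 11 named genes the difference between the resting and hypertrophic zone itself differed between P28 and P2, by the edgeR interaction test at an adjusted p below 0.05. Values are log2, P28 minus P2. The difference was more negative at P28 for Plagl1 (-5.36), Ucma (-6.31), Dcn (-6.13), Col1a2 (-5.49) and Col9a1 (-2.46). It was more positive for Wif1 (13.02), F13a1 (8.91), Alpl (6.05), Mgp (4.04), Gdf10 (9.60) and Beta-s (7.51). Gdf10, a growth factor of the BMP family, had no count in any P2 resting sum. Its hypertrophic sums were at 0, 0, 4.93 and 75.96 CPM in P2 animals A, C, D and G, so its P2 value rested mostly on animal G. The P28 difference of Gdf10 did not pass (1.55 ± 1.34, adjusted p = 0.628). Beta-s, the globin symbol, was at 275, 707, 12.3 and 163 CPM in the P2 hypertrophic sums of P2 animals A, C, D and G and at most 20.8 CPM in the resting ones. The P2 resting library of animal G held both 128 Xist and 747 Y-linked counts. Leaving out P2 animal D left 0 genes past the threshold, with 391 at an unadjusted p below 0.05, and leaving out P2 animal G left 2.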

How the results depend on the processing

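The 123 genes called at P28 became 64 with no filter on low counts, 40 with no replicate block (no pairing by animal), 37 with P28 sums only, 72 within the deposit set of animals A and B (added after seeing the data), 0 with the 6 P28 sums alone, 46 and 194 with library minimums of 50000 and 200000 counts, 264 without the ribosomal symbols and 329 with DESeq2, which shared 112 of them. With the 200000 minimum or without the ribosomal symbols only animal D kept both zones. The P28 resting values in these 2 settings came from 1 library, so their larger counts cannot be read as support. Leaving out 1 animal gave 28 to 129. Leaving out hypertrophic library 8 of animal D gave 121, and leaving out proliferative library 9, chosen after seeing the data, 90. Among genes named by the rule, the fit without library 9 lost Csgalnact1 (adjusted p = 0.0634), Fos (0.0585), Matn1 (0.0791), Nog (0.0827) and Prelp (0.0802). It also lost Smad7 (0.0506), Sqle (0.06), Tgfb3 (0.0629) and Timp3 (0.0545).

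The 19 genes whose zone difference changed with age became 2 and 65 with the minimums of 50000 and 200000 counts, 87 without the ribosomal symbols, 7 with no library minimum, 12 without proliferative library 9 and 141 with DESeq2, and 17 with no replicate block. Leaving out 1 animal gave 0 to 25.

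Of the 53 genes that passed and were named by the rule, none changed direction in any of the settings that gave it a value (not all did in each of the 24), and 30 were lost with no replicate block. RLE scaling lost 13, among them Timp3 (adjusted p = 0.127), Phex (0.148), Matn1 (0.178), Hhip (0.132) and Ibsp (0.252), and DESeq2 lost Bmp8a (0.182), Hhip (0.117), Irx5 (0.43), Matn1 (0.136) and Timp3 (0.0813). Col2a1, at -0.44 and not past the threshold, turned to 0.004 with RLE scaling, 0.001 when thinned to one total, 0.003 with DESeq2, 0.232 within that deposit set, and 0.759 with no library minimum, and ranged from -0.931 to 0.359 when 1 animal was left out (0.359 without P28 animal D). The cause was not tested. Depth limits low genes: 1 count is 8.03 CPM in the hypertrophic sum of animal A, and lower levels were not detectable there.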
